A study of Mus musculus with 8 samples.

Results

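The 48 genes described here encode the proteins that copy DNA: the origin recognition complex, the Mcm helicase with its loading factors, the Cdc45 and GINS activators, the replicative polymerases and primase, the sliding clamp with its loaders, the single strand binding protein, and the enzymes of flap processing, nucleotide supply, uracil repair and chromatin assembly. They were taken from the larger deposited table by gene symbol. All 48 listed symbols were found among its 31574 rows, all 48 were among the 18051 rows that could be tested, and all 48 lay above the detection floor in all 8 libraries. RNA was sequenced from c-kit+ acute myeloid leukaemia cells of C57BL/6 mouse bone marrow (femur and tibia), with library titles that carry the word Moz. Cells were taken 7 days after mice had received corn oil or tamoxifen in corn oil (10 mg/kg/day, 5 doses, injected into the peritoneum).

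There were 4 groups of 2 libraries. Ezh1-null tamoxifen libraries are labelled Ezh1-/- Ezh2-/-, Ezh1-null oil libraries Ezh1-/- Ezh2+/+, Ezh1-present tamoxifen libraries Ezh1+/+ Ezh2-/-, and Ezh1-present oil libraries Ezh1+/+ Ezh2+/+. The series description gives the oil groups as Ezh2 flox/flox and the tamoxifen groups as Ezh2 Δ/Δ, so the oil cells carried a floxed allele by that description. The Cre line and the age of the mice are not stated. The effect of tamoxifen and that of Ezh2 deletion cannot be told apart, because no group received tamoxifen without the deletion. The labels do not say whether the libraries of a group came from separate mice or separate leukaemias. The p-values therefore measure the spread between these libraries, which may be technical, and Ezh1 genotype and leukaemia of origin cannot be told apart.

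Ezh1 and Ezh2 are alternative methyltransferase subunits of Polycomb repressive complex 2, which represses genes through methylation of histone H3. DNA replication starts where the origin recognition complex, Cdc6 and Cdt1 load the Mcm helicase. Cdc45 and GINS then activate it, and polymerases alpha, delta and epsilon copy the strands with help from the clamp Pcna. Many of these genes are transcribed as cells enter S phase, under E2F transcription factors that the retinoblastoma proteins hold back, and CDK inhibitors such as those encoded by Cdkn2a and Cdkn2b act upstream of that switch.

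Every value below is a log2 normalized read count set against that gene's median of all 8 libraries. Every change is a difference of group means on that scale, and the ± after it is a standard error from limma (n = 2 libraries in each group). A value of 0 is therefore the gene's middle level, and levels cannot be compared between genes. A gene was called where limma's Benjamini-Hochberg adjusted p over all 18051 rows lay under 0.05. In bulk RNA, fewer cells of a type and less RNA per cell cannot be told apart.

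The replication genes were lowest in cells that had lost both Ezh1 and Ezh2 by label. The median of the 48 was -0.28 and -0.25 in Ezh1-null tamoxifen, -0.02 and 0.02 in Ezh1-null oil, 0.07 and 0.06 in Ezh1-present tamoxifen, and 0.02 and 0.06 in Ezh1-present oil libraries. Both Ezh1-null tamoxifen libraries were the lowest of the 8 for 34 of 48 members, against 8.4% of all tested rows, and they were both the highest for 0 members, against 7.81% of rows. By group mean, 42 members were lowest in Ezh1-null tamoxifen cells. The other 6 (Orc3, Gins4, Prim2, Rpa3, Rrm2 and Tk1) were lowest in Ezh1-present oil cells. The highest group varied more. Both Ezh1-present tamoxifen libraries stood on top for 10 members (8.82% of rows), both Ezh1-null oil libraries for 7 (10.2% of rows) and both Ezh1-present oil libraries for 7 (13% of rows). Both Ezh1-present oil libraries were lowest for 5 members (12.4% of rows), and neither both Ezh1-null oil nor both Ezh1-present tamoxifen libraries were lowest for any, against 11.2% and 6.89% of rows.

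**Figure D1:**
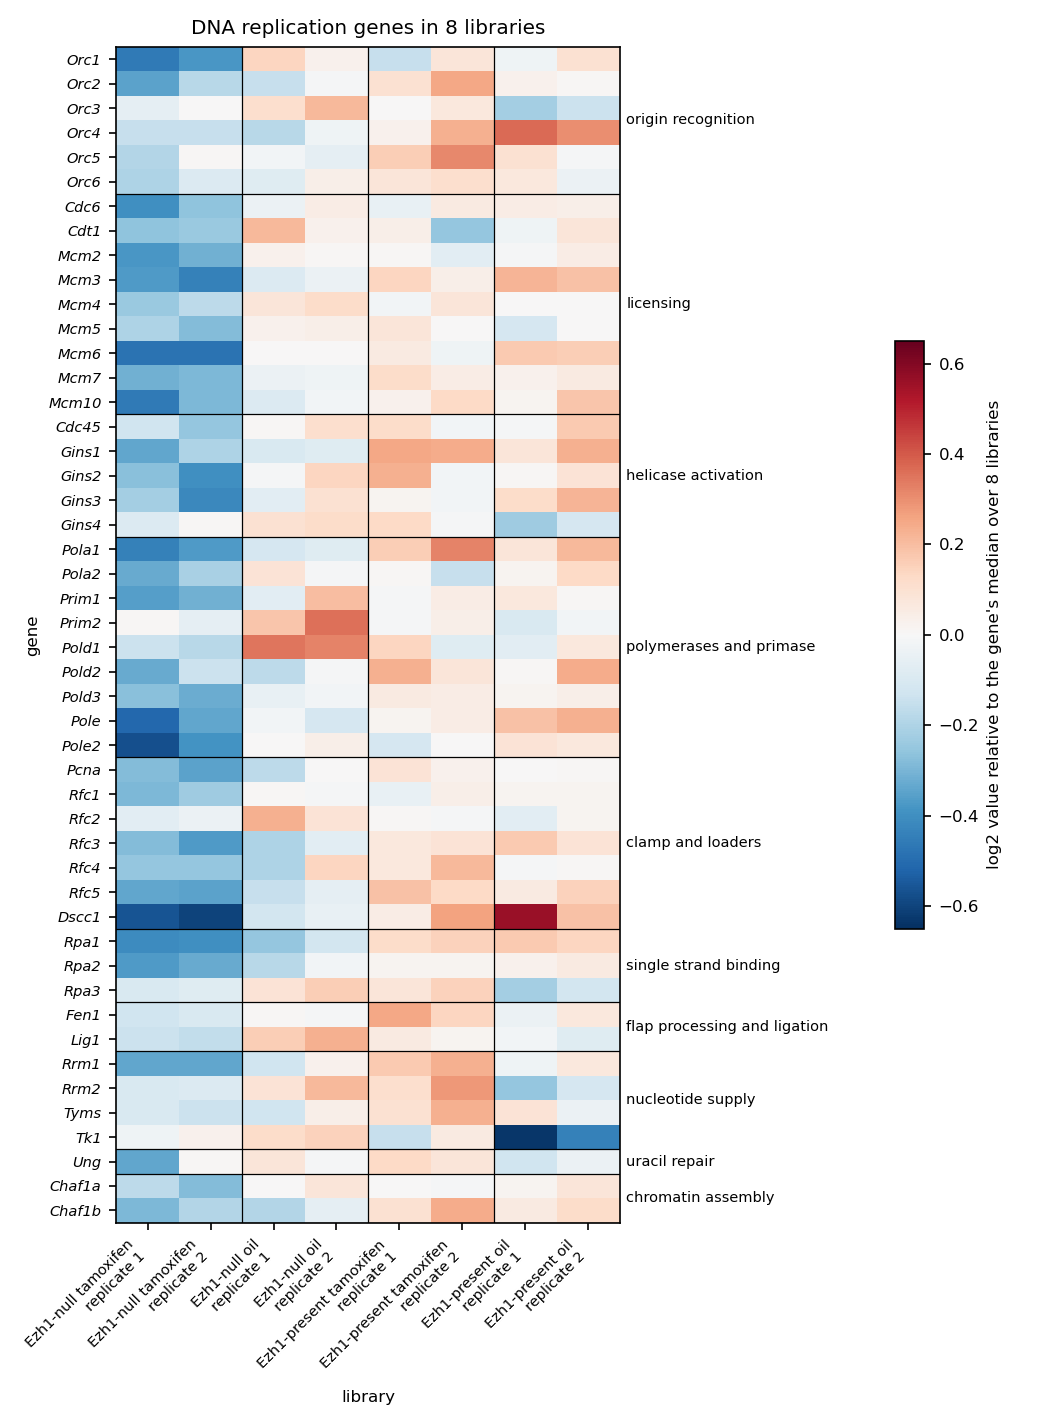
Log2 value of each of the 48 replication genes (rows, grouped by role) in each of the 8 libraries (columns, grouped by genotype and treatment), after subtraction of that gene's median. The columns of both Ezh1-null tamoxifen libraries are low for most genes, with medians of -0.28 and -0.25, while the other 6 columns have medians between -0.02 and 0.07.

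Promoter sequences show a feature that many members share. RefSeq windows (build GRCm38.p6, 250 bases before to 50 after the start) were found for 40 of the 48 genes. Dscc1, the member with the widest span of group means, was among those without a window. An E2F-like motif (the letters TTCCCGC, or TTGGCGC, or TTGCCGC, or TTCGCGC on either strand, overlapping matches counted as 1) was present in 26 of 40 members, or 65%, against 10.9% of the 27025 genes with a window. CCAAT was present in 24 members (60%, against 41.1% of genes) and TTTGAA in 5 (12.5%, against 20.2%), also on either strand and counted apart from the E2F-like matches. These shares cover all genes with a window, whether tested here or not, whereas every member was tested. The median base content of the members' windows was 61.3% G and C, against 52.7% for all windows, so the windows differ in more than the motif. The 150 bases before the start are shown, 5′ to 3′ on the gene's strand, for Mcm6 (minus strand, chr1:128359706-128359855), the helicase subunit called in 3 comparisons, and for Pola1 (minus strand, chrX:93632156-93632305), the polymerase alpha subunit with the largest called fall among the polymerases between the Ezh1 genotypes in tamoxifen. Capitals mark E2F-like matches, and each stretch holds 2. Mcm6 has them at 109 and 46 bases before the start, and Pola1 at 138 and 121 bases.
Mcm6: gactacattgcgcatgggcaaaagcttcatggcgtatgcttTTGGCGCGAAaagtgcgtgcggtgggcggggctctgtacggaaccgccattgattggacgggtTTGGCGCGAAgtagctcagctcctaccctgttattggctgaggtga
Pola1: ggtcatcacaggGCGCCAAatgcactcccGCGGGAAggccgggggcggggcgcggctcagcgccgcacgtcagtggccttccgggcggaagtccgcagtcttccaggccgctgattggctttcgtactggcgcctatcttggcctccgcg
Rpa1 (minus strand, chr11:75348384-75348533), which was also among the called members, has 0 matches in its window. Tk1 (minus strand, chr11:117826015-117826164), which was lowest in Ezh1-present oil cells, has 0 matches as well.
Rpa1: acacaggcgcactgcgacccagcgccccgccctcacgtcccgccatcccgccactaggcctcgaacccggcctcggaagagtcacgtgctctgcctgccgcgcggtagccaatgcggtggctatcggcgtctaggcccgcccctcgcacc
Tk1: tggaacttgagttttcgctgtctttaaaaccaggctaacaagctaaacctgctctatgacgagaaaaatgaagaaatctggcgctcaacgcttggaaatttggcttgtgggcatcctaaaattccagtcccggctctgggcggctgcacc
The other members lowest in Ezh1-present oil cells that have a window, Orc3, Rpa3 and Rrm2, each have a match. Mcm2, Mcm10, Pcna and Rfc5, all lowest in Ezh1-null tamoxifen cells, have none. A match is a run of letters and not a measured binding site. After tamoxifen in Ezh1-null cells the 26 members with a match had a median change of -0.28 (range -0.51 to -0.04), and the 14 with a window but no match had a median of -0.21 (range -0.36 to -0.05), so the ranges overlapped. The medians with and without a match were -0.34 and -0.32 between the genotypes in tamoxifen, and -0.04 and -0.08 in oil. They were -0.34 and -0.31 between Ezh1-null tamoxifen and Ezh1-present oil. After tamoxifen in Ezh1-present cells they were 0.00 and 0.05, and in the interaction -0.32 and -0.27.

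Ezh1 itself read -1.61 and -1.55 in Ezh1-null tamoxifen, -1.75 and -1.94 in Ezh1-null oil, 1.55 and 1.63 in Ezh1-present tamoxifen, and 1.71 and 1.66 in Ezh1-present oil libraries, and was low in all 4 libraries labelled null. Ezh2 read -0.53 and -0.56 in Ezh1-null tamoxifen, -0.12 and -0.03 in Ezh1-null oil, 0.09 and 0.03 in Ezh1-present tamoxifen, and 0.25 and 0.23 in Ezh1-present oil libraries. The deleted part of Ezh2 is not named in the sources used here, so its transcript checks the labels only in part. It had a change of -0.47 ± 0.08 (adjusted p = 0.0554) in Ezh1-null cells and of -0.18 ± 0.08 (adjusted p = 0.293) in Ezh1-present cells after tamoxifen. The 6 progenitor markers used to check the labelled cells (Kit, Cd34, Flt3, Ptprc, Mpo, Myb) were above the floor in all 8 libraries. They were not alike between the groups. After tamoxifen their changes ran from -1.09 to 0.83 in Ezh1-null cells and from -0.56 to 0.96 in Ezh1-present cells. Limma called 0 of them in either, against 3.4% and 0.903% of rows. Between the genotypes in tamoxifen their changes ran from -2.22 to 1.36, with 2 called higher (6.77% of rows) and 1 lower (5.44% of rows). In oil 2 were called higher (12.5% of rows) and 0 lower (12.4% of rows). Markers of other cell types differed between the groups, and since levels are centred they cannot be summed: the mean of 11 T and NK cell markers was 0.43 and 0.58 in Ezh1-null tamoxifen, -0.49 and -1.13 in Ezh1-null oil, 0.86 and 2.08 in Ezh1-present tamoxifen, and -2.15 and -2.11 in Ezh1-present oil libraries. The mean of 12 erythroid markers was 0.28 and -0.05 in Ezh1-null tamoxifen, 0.03 and 1.53 in Ezh1-null oil, -0.50 and 2.32 in Ezh1-present tamoxifen, and -2.39 and -1.60 in Ezh1-present oil libraries. After tamoxifen in Ezh1-null cells, the 8 lists of other cell types had median changes between -1.11 (B cells) and 1.51 (T and NK cells). Limma called 2 monocyte and macrophage markers higher there, against 3.1% of rows. Between Ezh1-null and Ezh1-present cells other lists had the larger changes. The median of 10 mature neutrophil markers was 2.11 in tamoxifen, 3.65 in oil, and 4.03 between Ezh1-null tamoxifen and Ezh1-present oil. That of 9 mast cell, basophil and eosinophil markers was 2.19, 4.89 and 5.80 in those comparisons, and that of 8 B cell markers 2.56, 4.18 and 2.73. In the same order limma called 0, 6 and 7 neutrophil markers higher. It called 2, 5 and 7 markers of the mast cell, basophil and eosinophil list higher, and 4, 5 and 3 B cell markers. The shares of all rows called higher were 6.77%, 12.5% and 13.2%. Tamoxifen-treated Ezh1-present cells differed from their oil controls too: the medians of all 8 lists lay above 0, between 0.57 (B cells) and 3.53 (T and NK cells). Limma called 2 T and NK markers and 1 monocyte and macrophage marker higher there, against 0.637% of rows. The erythroid median was 3.52, with all 12 markers higher but 0 called by limma. In the interaction the 8 medians lay between -3.37 (erythroid) and -0.11 (monocyte and macrophage), and all 12 erythroid markers were below 0, again with 0 called. What these marker differences contribute to the replication gene results, the interaction included, was not tested. Relative depth is known only roughly: 1 read was worth between 0.747 (Ezh1-present tamoxifen replicate 1) and 1.24 (Ezh1-null oil replicate 1) on the normalized scale.

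The first comparison asks what tamoxifen changed in cells without Ezh1. All 48 replication genes were lower in Ezh1-null tamoxifen than in Ezh1-null oil cells, against 49.9% of all tested rows, with a median change of -0.26 (a level of 83.5% of that in oil) and a range of -0.51 to -0.04. The 2 tamoxifen libraries lay below both oil libraries for 42 of the 48, against 24.8% of rows. Single genes rarely passed the test: Mcm6 was called and no other member, against 3.4% of rows called in either direction and 0.299% called lower. At an unadjusted p under 0.05 the members numbered 28 of 48, and all tested rows 3223 of 18051. Leaving out any 1 of the 8 libraries ended the Mcm6 call, which gave 0 called members each time, and the median change then stayed between -0.29 and -0.23.

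The same treatment in cells with Ezh1 gave another picture. The median change was 0.03 (a level of 102% of that in oil), the range was -0.22 to 0.49, and 20 of 48 members were lower, against 47.3% of rows. Limma called 0 members, against 0.903% of rows (0.637% higher and 0.266% lower). At an unadjusted p under 0.05 there were 3 of 48 members and 3713 of all 18051 rows. The tamoxifen libraries lay below both oil libraries for 9 members (25.3% of rows) and above both for 18 (28.5% of rows). The difference between the tamoxifen changes, Ezh1-null minus Ezh1-present, was itself tested as an interaction. It was below 0 for 47 of 48 members, against 50.3% of rows, with a median of -0.30 and a range of -0.62 to 0.16. Limma called 0 members in it, against 0.476% of rows, and 18 of 48 had an unadjusted p under 0.05, as did 2697 of all 18051 rows. The interactions furthest from 0 were those of Tk1 at -0.62 ± 0.17 (adjusted p = 0.208), Rrm2 at -0.62 ± 0.15 (adjusted p = 0.187) and Pold1 at -0.52 ± 0.16 (adjusted p = 0.252). The interaction shares its libraries with both tamoxifen comparisons.

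**Figure D2:**
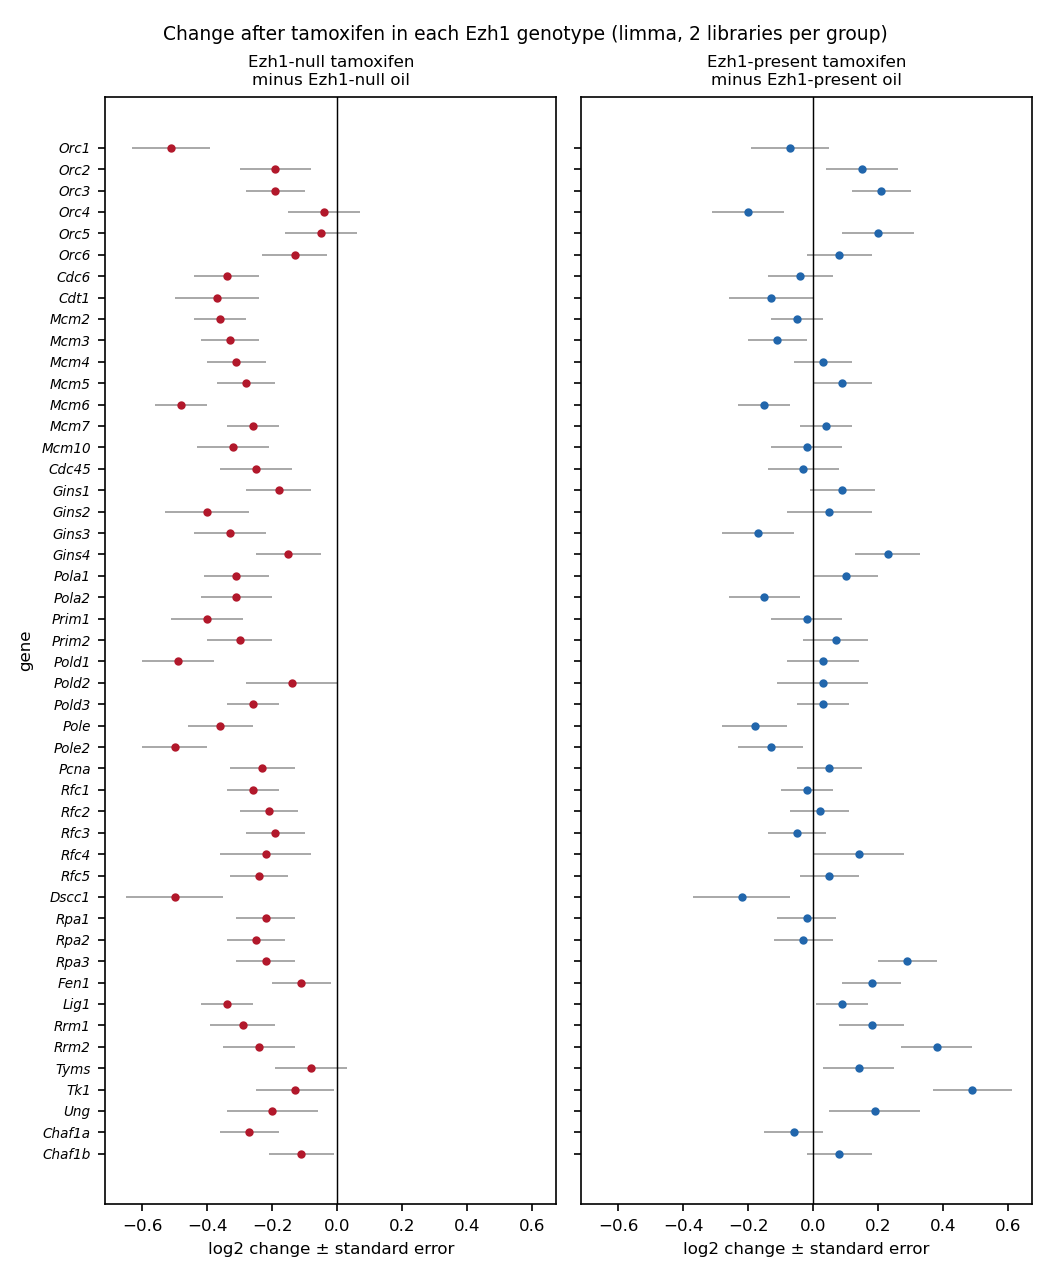
Log2 change with tamoxifen (tamoxifen minus oil) of each of the 48 replication genes in Ezh1-null cells and in Ezh1-present cells, drawn as points with their standard errors and ordered by role. All 48 points lie below 0 in Ezh1-null cells (-0.51 to -0.04), and the points lie on either side of 0 in Ezh1-present cells (-0.22 to 0.49).

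Set against tamoxifen-treated cells that kept Ezh1, tamoxifen-treated Ezh1-null cells had lower values for 47 of 48 members (50.2% of rows), with a median change of -0.33 (a level of 79.5% of that in Ezh1-present cells) and a range of -0.73 to 0.05. Their libraries lay below both Ezh1-present tamoxifen libraries for 43 members, against 31.8% of rows. The call was made for 11 members, all lower, against 12.2% of rows called in either direction, 5.44% called lower and 6.77% called higher: Mcm3, Mcm6, Mcm7, Gins1, Pola1, Pold3, Pole, Rfc5, Rpa1, Rrm1 and Dscc1. The count was 20 under quantile normalization, 18 with only rows above the floor in all libraries and 0 with only the groups compared. The shares of rows called, here and below, are those of the main fit, and those of the alternative fits are not given. It was 0 without any 1 of the 4 tamoxifen libraries and 2 without any 1 of the 4 oil libraries.

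Without tamoxifen the difference between the Ezh1 genotypes was centred near 0 in these genes. The median change between Ezh1-null oil and Ezh1-present oil cells was -0.04 (range -0.46 to 0.67), and 31 of 48 members were lower, against 54% of rows. The call was made for 4 members, against 24.9% of rows: Orc3 and Tk1 were higher and Orc4 and Rpa1 lower in Ezh1-null oil cells. Under quantile normalization 1 member was called higher and 0 lower. The groups did not overlap for 22 members that were lower (34.7% of rows) and 12 that were higher (31% of rows). Leaving out 1 library reduced the count to 0 (Ezh1-null oil replicate 1 or 2, or Ezh1-present oil replicate 1), to 1 (Ezh1-null tamoxifen replicate 1 or 2, or Ezh1-present oil replicate 2) or to 2 (Ezh1-present tamoxifen replicate 1 or 2).

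The widest contrast sets cells with both changes against cells with neither. The median change between Ezh1-null tamoxifen and Ezh1-present oil cells was -0.33 (a level of 79.8%), the range was -0.95 to 0.53, and 42 of 48 members were lower, against 50.1% of rows. Limma called 20 members, 19 lower and 1 (Tk1) higher, against 23.4% of rows called in either direction and 10.2% called lower. Under quantile normalization 25 were called lower and 0 higher, so the Tk1 call was lost there. The Ezh1-null tamoxifen libraries lay below both Ezh1-present oil libraries for 39 members (32.9% of rows) and above both for 5 (33.8% of rows). Leaving out Ezh1-null tamoxifen replicate 1 or 2 left 2 or 3 calls, and leaving out Ezh1-present oil replicate 1 or 2 left 1 or 3. The count was 11 when an Ezh1-null oil library was dropped and 14 when an Ezh1-present tamoxifen library was dropped. All 6 comparisons draw on the same 8 libraries, so their calls are not independent of each other.

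The licensing factors, grouped here with Mcm10, were low in Ezh1-null tamoxifen cells. All 9 (Mcm2 to Mcm7, Mcm10, Cdc6 and Cdt1) were lower in Ezh1-null cells after tamoxifen, with a median change of -0.33, and all 9 had an unadjusted p under 0.05. After tamoxifen in Ezh1-present cells their median change was -0.04, with 6 of 9 lower. Mcm6 (gene 17219, chromosome 1, 128331591 to 128359656, with all gene coordinates from the deposited table in mm10), a subunit of the helicase ring, read -0.48 and -0.48 in Ezh1-null tamoxifen, 0.00 and 0.00 in Ezh1-null oil, 0.06 and -0.03 in Ezh1-present tamoxifen, and 0.17 and 0.16 in Ezh1-present oil libraries. Both Ezh1-null tamoxifen libraries lay far below the rest, and the libraries of each group differed little. Mcm6 had a change of -0.48 ± 0.08 (adjusted p = 0.0488) after tamoxifen in Ezh1-null cells and of -0.15 ± 0.08 (adjusted p = 0.355) in Ezh1-present cells. Between Ezh1-null and Ezh1-present cells in tamoxifen the change was -0.50 ± 0.08 (adjusted p = 0.0262). Between Ezh1-null tamoxifen and Ezh1-present oil cells it was -0.65 ± 0.08 (adjusted p = 0.00788), a call that held in all 15 alternative fits, with adjusted p between 0.00523 and 0.0463.

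Mcm3 (gene 17215, chromosome 1, 20803014 to 20820213), another ring subunit, read -0.37 and -0.44 in Ezh1-null tamoxifen, -0.09 and -0.04 in Ezh1-null oil, 0.14 and 0.04 in Ezh1-present tamoxifen, and 0.22 and 0.19 in Ezh1-present oil libraries. All 4 Ezh1-null libraries lay below all 4 Ezh1-present ones, and the tamoxifen pair was lower still. It had a change of -0.33 ± 0.09 (adjusted p = 0.126) after tamoxifen in Ezh1-null cells, of -0.49 ± 0.09 (adjusted p = 0.0293) between the genotypes in tamoxifen, and of -0.61 ± 0.09 (adjusted p = 0.0102) between Ezh1-null tamoxifen and Ezh1-present oil cells. Mcm7, also of the ring, read -0.31 and -0.29 in Ezh1-null tamoxifen, -0.04 and -0.03 in Ezh1-null oil, 0.12 and 0.05 in Ezh1-present tamoxifen, and 0.03 and 0.06 in Ezh1-present oil libraries. The lowest libraries were again the Ezh1-null tamoxifen ones, and no library of another group came near them. Mcm7 was called between the genotypes in tamoxifen at -0.38 ± 0.08 (adjusted p = 0.0413) and between Ezh1-null tamoxifen and Ezh1-present oil cells at -0.34 ± 0.08 (adjusted p = 0.0354). Its gene hosts Mir25 and Mir106b, whose rows overlap it by 84 and 82 bases of its 7274.

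Mcm2 read -0.38 and -0.31 in Ezh1-null tamoxifen, 0.03 and 0.01 in Ezh1-null oil, 0.01 and -0.07 in Ezh1-present tamoxifen, and -0.01 and 0.05 in Ezh1-present oil libraries. The 6 libraries outside Ezh1-null tamoxifen spanned a narrow range around 0. Mcm2 was called only between Ezh1-null tamoxifen and Ezh1-present oil cells, at -0.36 ± 0.08 (adjusted p = 0.0357). Mcm10, which helps to start unwinding, read -0.46 and -0.29 in Ezh1-null tamoxifen, -0.09 and -0.02 in Ezh1-null oil, 0.03 and 0.13 in Ezh1-present tamoxifen, and 0.02 and 0.18 in Ezh1-present oil libraries. Its low pair was less tight, and the call in the same comparison was -0.47 ± 0.11 (adjusted p = 0.0363). Cdc6, the ATPase that loads the ring, read -0.40 and -0.26 in Ezh1-null tamoxifen, -0.04 and 0.05 in Ezh1-null oil, -0.05 and 0.06 in Ezh1-present tamoxifen, and 0.05 and 0.04 in Ezh1-present oil libraries. Ezh1-null tamoxifen lay below all other groups, which overlapped each other, and Cdc6 was called at -0.38 ± 0.10 (adjusted p = 0.0478) against Ezh1-present oil. The remaining members of the group were not called in any comparison. After tamoxifen in Ezh1-null cells the values were -0.31 ± 0.09 (adjusted p = 0.15) for Mcm4, -0.28 ± 0.09 (adjusted p = 0.197) for Mcm5 and -0.37 ± 0.13 (adjusted p = 0.244) for Cdt1, the Mcm loading partner that geminin inhibits.

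The origin recognition subunits differed among themselves. All 6 were lower in Ezh1-null cells after tamoxifen, with a median change of -0.16, 1 unadjusted p under 0.05 and 0 calls by limma. In Ezh1-present cells the median change was 0.12, and between the genotypes in tamoxifen it was -0.30. Orc1, the subunit whose level varies through the cell cycle, read -0.46 and -0.38 in Ezh1-null tamoxifen, 0.14 and 0.03 in Ezh1-null oil, -0.15 and 0.08 in Ezh1-present tamoxifen, and -0.03 and 0.10 in Ezh1-present oil libraries. The Ezh1-null tamoxifen pair stood well below every other library. Of all members, Orc1 had the change furthest below 0 after tamoxifen in Ezh1-null cells, -0.51 ± 0.12 (adjusted p = 0.101), which did not pass the threshold, and was called against Ezh1-present oil at -0.46 ± 0.12 (adjusted p = 0.0462).

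Orc4 (gene 26428, chromosome 2, 48902754 to 48949267) read -0.15 and -0.15 in Ezh1-null tamoxifen, -0.18 and -0.03 in Ezh1-null oil, 0.03 and 0.23 in Ezh1-present tamoxifen, and 0.37 and 0.30 in Ezh1-present oil libraries. Here the contrast ran along Ezh1 genotype: all 4 Ezh1-null libraries lay below all 4 Ezh1-present ones, and the Ezh1-null treatments overlapped. The change was -0.44 ± 0.11 (adjusted p = 0.0404) between the genotypes in oil, a call, and -0.48 ± 0.11 (adjusted p = 0.0331) between Ezh1-null tamoxifen and Ezh1-present oil cells, also a call. With tamoxifen it was -0.04 ± 0.11 (adjusted p = 0.893) in Ezh1-null cells and -0.20 ± 0.11 (adjusted p = 0.356) in Ezh1-present cells. Orc3 read -0.06 and 0.00 in Ezh1-null tamoxifen, 0.11 and 0.21 in Ezh1-null oil, 0.00 and 0.07 in Ezh1-present tamoxifen, and -0.22 and -0.14 in Ezh1-present oil libraries. The Ezh1-present oil libraries were its lowest and the Ezh1-null oil libraries its highest, and it was called between those groups at 0.34 ± 0.09 (adjusted p = 0.0481). After tamoxifen in Ezh1-null cells Orc3 had a change of -0.19 ± 0.09 (adjusted p = 0.37). Orc4 shares 511 bases with the row of Acvr2a, and Orc3 shares 128 bases with that of Akirin2. Between the genotypes in oil Acvr2a had a change of -0.35 ± 0.23 (adjusted p = 0.315) and Akirin2 of 0.06 ± 0.09 (adjusted p = 0.672). Changes of Orc2, Orc5 and Orc6 after tamoxifen in Ezh1-null cells were -0.19 ± 0.11, -0.05 ± 0.11 and -0.13 ± 0.10, with no call in any comparison.

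The helicase activators differed in which group was lowest. The 5 members Cdc45 and Gins1 to Gins4 were all lower in Ezh1-null cells after tamoxifen, with a median change of -0.25, 0 calls by limma and 2 unadjusted p under 0.05. Gins1, a subunit of the GINS complex, read -0.34 and -0.20 in Ezh1-null tamoxifen, -0.10 and -0.08 in Ezh1-null oil, 0.25 and 0.24 in Ezh1-present tamoxifen, and 0.08 and 0.23 in Ezh1-present oil libraries. All 4 Ezh1-null libraries lay below all 4 Ezh1-present ones, and the tamoxifen pair lay lowest. It was called between the genotypes in tamoxifen at -0.52 ± 0.10 (adjusted p = 0.0346) and against Ezh1-present oil at -0.42 ± 0.10 (adjusted p = 0.0356). Gins3, of the same complex, read -0.22 and -0.42 in Ezh1-null tamoxifen, -0.07 and 0.10 in Ezh1-null oil, 0.02 and -0.02 in Ezh1-present tamoxifen, and 0.12 and 0.22 in Ezh1-present oil libraries. The Ezh1-null tamoxifen libraries were lowest, though not close to each other, and the call was -0.49 ± 0.11 (adjusted p = 0.0365) against Ezh1-present oil. Gins4, the last subunit, read -0.09 and 0.01 in Ezh1-null tamoxifen, 0.10 and 0.12 in Ezh1-null oil, 0.13 and -0.01 in Ezh1-present tamoxifen, and -0.23 and -0.11 in Ezh1-present oil libraries. Its low libraries were those of Ezh1-present oil, and the Ezh1-present tamoxifen libraries overlapped both Ezh1-null groups. Its change was -0.15 ± 0.10 (adjusted p = 0.503) after tamoxifen in Ezh1-null cells and 0.23 ± 0.10 (adjusted p = 0.272) in Ezh1-present cells. Cdc45, which joins GINS on the ring, had a change of -0.25 ± 0.11 (adjusted p = 0.344) and Gins2 of -0.40 ± 0.13 (adjusted p = 0.192) after tamoxifen in Ezh1-null cells, and neither was called in any comparison.

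The polymerases and primase were lower after tamoxifen in Ezh1-null cells in 9 of 9 cases, with a median change of -0.31, 0 calls by limma and 8 unadjusted p under 0.05. In Ezh1-present cells the median change was 0.03. Pola1 (gene 18968, chromosome X, 93304766 to 93632155), the catalytic subunit of polymerase alpha that extends primers, whose promoter stretch with its paired matches is shown above, read -0.44 and -0.37 in Ezh1-null tamoxifen, -0.11 and -0.08 in Ezh1-null oil, 0.16 and 0.32 in Ezh1-present tamoxifen, and 0.08 and 0.21 in Ezh1-present oil libraries. The order ran from Ezh1-null tamoxifen at the bottom through Ezh1-null oil to the Ezh1-present groups, which overlapped each other. Pola1 had a change of -0.31 ± 0.10 (adjusted p = 0.205) after tamoxifen in Ezh1-null cells, which did not pass. It was called between the genotypes in tamoxifen at -0.65 ± 0.10 (adjusted p = 0.0247) and against Ezh1-present oil at -0.55 ± 0.10 (adjusted p = 0.0211).

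Pole (gene 18973, chromosome 5, 110286319 to 110337453), the catalytic subunit of the leading strand polymerase epsilon, read -0.51 and -0.34 in Ezh1-null tamoxifen, -0.02 and -0.11 in Ezh1-null oil, 0.02 and 0.05 in Ezh1-present tamoxifen, and 0.19 and 0.23 in Ezh1-present oil libraries. Its highest pair was Ezh1-present oil and its lowest Ezh1-null tamoxifen, and no groups overlapped. The calls were -0.46 ± 0.10 (adjusted p = 0.0423) between the genotypes in tamoxifen and -0.64 ± 0.10 (adjusted p = 0.0121) against Ezh1-present oil. Pole2, the second subunit of that enzyme, read -0.57 and -0.39 in Ezh1-null tamoxifen, 0.00 and 0.04 in Ezh1-null oil, -0.11 and 0.00 in Ezh1-present tamoxifen, and 0.09 and 0.07 in Ezh1-present oil libraries. The Ezh1-null tamoxifen pair lay far below every other library. Pole2 had a change of -0.50 ± 0.10 (adjusted p = 0.0742) after tamoxifen in Ezh1-null cells, which did not pass, and of -0.56 ± 0.10 (adjusted p = 0.019) against Ezh1-present oil, which did.

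Pold3, an accessory subunit of polymerase delta, read -0.27 and -0.32 in Ezh1-null tamoxifen, -0.05 and -0.02 in Ezh1-null oil, 0.06 and 0.05 in Ezh1-present tamoxifen, and 0.02 and 0.04 in Ezh1-present oil libraries. Groups other than Ezh1-null tamoxifen lay close to 0, and the calls were -0.35 ± 0.08 (adjusted p = 0.0489) between the genotypes in tamoxifen and -0.32 ± 0.08 (adjusted p = 0.0392) against Ezh1-present oil. Pold1, the catalytic subunit of that enzyme, read -0.14 and -0.18 in Ezh1-null tamoxifen, 0.35 and 0.32 in Ezh1-null oil, 0.14 and -0.08 in Ezh1-present tamoxifen, and -0.07 and 0.07 in Ezh1-present oil libraries. It was highest in Ezh1-null oil, not in an Ezh1-present group, and had a change of -0.49 ± 0.11 (adjusted p = 0.0962) after tamoxifen in Ezh1-null cells with no call. After tamoxifen in Ezh1-null cells the changes of Pola2, Pold2, Prim1 and Prim2 were -0.31 ± 0.11, -0.14 ± 0.14, -0.40 ± 0.11 and -0.30 ± 0.10. Prim1 and Prim2 are the primase subunits, and neither they nor Pola2 and Pold2 were called in any comparison.

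**Figure D3:**
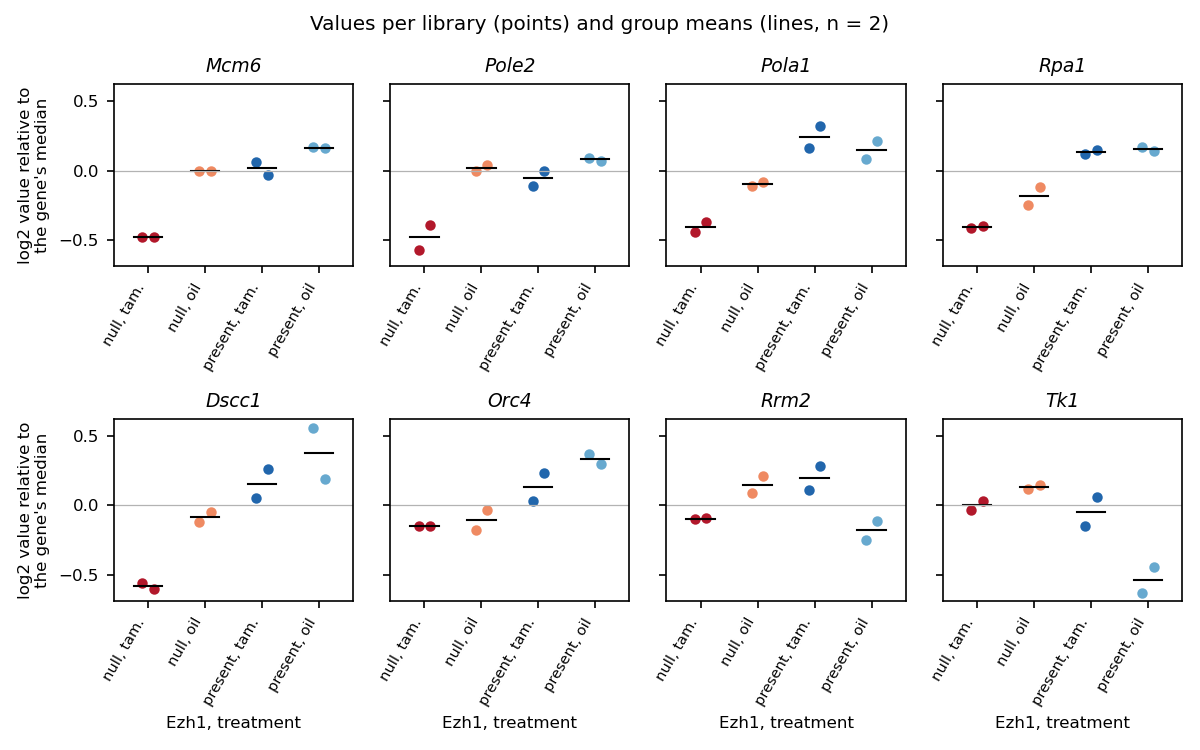
Log2 values per library (points, relative to the gene's median) and group means (lines) of Mcm6, Pole2, Pola1, Rpa1, Dscc1, Orc4, Rrm2 and Tk1 in the 4 groups. Ezh1-null tamoxifen is lowest for the first 5 genes, with Dscc1 at -0.56 and -0.60, whereas Tk1 is lowest in Ezh1-present oil at -0.63 and -0.44.

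Among the clamp and its loaders, 7 of 7 were lower after tamoxifen in Ezh1-null cells (median change -0.23, 0 calls by limma, 3 unadjusted p under 0.05). Dscc1 (gene 72107, chromosome 15, 55076101 to 55090478), a subunit of the alternative clamp loader that acts in sister chromatid cohesion, read -0.56 and -0.60 in Ezh1-null tamoxifen, -0.12 and -0.05 in Ezh1-null oil, 0.05 and 0.26 in Ezh1-present tamoxifen, and 0.56 and 0.19 in Ezh1-present oil libraries. It had the widest span of all members between group means, though its Ezh1-present oil libraries lay far apart. Dscc1 had a change of -0.50 ± 0.15 (adjusted p = 0.186) after tamoxifen in Ezh1-null cells, of -0.73 ± 0.15 (adjusted p = 0.043) between the genotypes in tamoxifen and of -0.95 ± 0.15 (adjusted p = 0.0143) against Ezh1-present oil. Rfc5, a subunit of the main loader, read -0.34 and -0.35 in Ezh1-null tamoxifen, -0.15 and -0.06 in Ezh1-null oil, 0.19 and 0.13 in Ezh1-present tamoxifen, and 0.06 and 0.15 in Ezh1-present oil libraries. The Ezh1-null libraries all lay below the Ezh1-present ones, the tamoxifen pair lowest. Rfc5 was called at -0.50 ± 0.09 (adjusted p = 0.0287) between the genotypes in tamoxifen and at -0.45 ± 0.09 (adjusted p = 0.0218) against Ezh1-present oil. Rfc3, another subunit, read -0.28 and -0.37 in Ezh1-null tamoxifen, -0.20 and -0.07 in Ezh1-null oil, 0.07 and 0.09 in Ezh1-present tamoxifen, and 0.17 and 0.09 in Ezh1-present oil libraries. It had the same order of genotypes, and its call was -0.46 ± 0.09 (adjusted p = 0.0264) against Ezh1-present oil. Pcna, the clamp, had a change of -0.23 ± 0.10 (adjusted p = 0.307) after tamoxifen in Ezh1-null cells and was called in no comparison. Named pseudogene rows of Pcna and Tyms are also in the table, so reads may have been split. Rfc1, Rfc2 and Rfc4 had changes of -0.26 ± 0.08, -0.21 ± 0.09 and -0.22 ± 0.14, with no call.

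Replication protein A, which coats single stranded DNA, has 3 subunits that differed in which group was lowest. After tamoxifen in Ezh1-null cells their changes were alike, at -0.22 (Rpa1), -0.25 (Rpa2) and -0.22 (Rpa3). Rpa1 (gene 68275, chromosome 11, 75300259 to 75348383), the large subunit, whose window holds no E2F-like match, read -0.41 and -0.40 in Ezh1-null tamoxifen, -0.25 and -0.12 in Ezh1-null oil, 0.12 and 0.15 in Ezh1-present tamoxifen, and 0.17 and 0.14 in Ezh1-present oil libraries. All Ezh1-null libraries lay below all Ezh1-present ones already in oil, and the tamoxifen pair lay lower. It was called between the genotypes in oil at -0.34 ± 0.09 (adjusted p = 0.0438), in tamoxifen at -0.54 ± 0.09 (adjusted p = 0.0251), and against Ezh1-present oil at -0.56 ± 0.09 (adjusted p = 0.0129). Rpa2, the middle subunit, read -0.37 and -0.33 in Ezh1-null tamoxifen, -0.18 and -0.02 in Ezh1-null oil, 0.02 and 0.02 in Ezh1-present tamoxifen, and 0.03 and 0.06 in Ezh1-present oil libraries. Its Ezh1-null tamoxifen pair was lowest, and the call was -0.39 ± 0.09 (adjusted p = 0.0359) against Ezh1-present oil. Rpa3, the small subunit, read -0.10 and -0.08 in Ezh1-null tamoxifen, 0.09 and 0.16 in Ezh1-null oil, 0.08 and 0.15 in Ezh1-present tamoxifen, and -0.22 and -0.12 in Ezh1-present oil libraries. Its lowest libraries were those of Ezh1-present oil instead. Rpa3 had a change of -0.22 ± 0.09 (adjusted p = 0.293) after tamoxifen in Ezh1-null cells and of 0.29 ± 0.09 (adjusted p = 0.166) in Ezh1-present cells, neither past the threshold.

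The nucleotide supply genes include Rrm2 and Tk1, both lowest in Ezh1-present oil cells. All 4 were lower after tamoxifen in Ezh1-null cells (median change -0.19) and all 4 had positive values in Ezh1-present cells (median change 0.28), with 0 calls by limma in either, and 1 and 2 unadjusted p under 0.05. Rrm1, the large subunit of ribonucleotide reductase, read -0.34 and -0.34 in Ezh1-null tamoxifen, -0.13 and 0.03 in Ezh1-null oil, 0.17 and 0.23 in Ezh1-present tamoxifen, and -0.03 and 0.07 in Ezh1-present oil libraries. The Ezh1-null tamoxifen pair was lowest and the Ezh1-present tamoxifen pair highest, and Rrm1 was called between them at -0.54 ± 0.10 (adjusted p = 0.0327). Rrm2, the small subunit that limits the enzyme in S phase, read -0.10 and -0.09 in Ezh1-null tamoxifen, 0.09 and 0.21 in Ezh1-null oil, 0.11 and 0.28 in Ezh1-present tamoxifen, and -0.25 and -0.11 in Ezh1-present oil libraries. Its Ezh1-present oil libraries lay below both of Ezh1-null tamoxifen, and the Ezh1-present tamoxifen libraries overlapped those of Ezh1-null oil. Rrm2 had a change of -0.24 ± 0.11 (adjusted p = 0.346) after tamoxifen in Ezh1-null cells and of 0.38 ± 0.11 (adjusted p = 0.153) in Ezh1-present cells. Tyms, thymidylate synthase, had a change of -0.08 ± 0.11 (adjusted p = 0.767) and 0.14 ± 0.11 (adjusted p = 0.523) in the same comparisons.

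Tk1 (gene 21877, chromosome 11, 117815519 to 117826014), the thymidine kinase of the salvage pathway, read -0.03 and 0.03 in Ezh1-null tamoxifen, 0.12 and 0.15 in Ezh1-null oil, -0.15 and 0.06 in Ezh1-present tamoxifen, and -0.63 and -0.44 in Ezh1-present oil libraries. Both Ezh1-present oil libraries were far below the other 6, and the Ezh1-null oil libraries were highest. Tk1 was called higher in Ezh1-null oil than in Ezh1-present oil cells at 0.67 ± 0.12 (adjusted p = 0.0162), and higher in Ezh1-null tamoxifen than in Ezh1-present oil cells at 0.53 ± 0.12 (adjusted p = 0.0313). After tamoxifen it had a change of -0.13 ± 0.12 (adjusted p = 0.615) in Ezh1-null cells and of 0.49 ± 0.12 (adjusted p = 0.122) in Ezh1-present cells. The deposited bounds of Tk1, 10496 bases, lie wholly within the row of Afmid, which was called at 0.68 ± 0.16 (adjusted p = 0.0376) between the genotypes in oil. The sources used here do not state whether counting used strand, so the reads of these neighbours cannot be told apart.

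The remaining roles had 5 members and 0 calls in any comparison. Lig1, the ligase that joins Okazaki fragments, read -0.14 and -0.16 in Ezh1-null tamoxifen, 0.16 and 0.23 in Ezh1-null oil, 0.06 and 0.02 in Ezh1-present tamoxifen, and -0.02 and -0.08 in Ezh1-present oil libraries. It was highest in Ezh1-null oil and lowest in Ezh1-null tamoxifen, with -0.34 ± 0.08 (adjusted p = 0.108) between them. Ung, which removes uracil from DNA, read -0.34 and 0.01 in Ezh1-null tamoxifen, 0.08 and -0.01 in Ezh1-null oil, 0.13 and 0.08 in Ezh1-present tamoxifen, and -0.13 and -0.04 in Ezh1-present oil libraries. Its Ezh1-null tamoxifen libraries lay on either side of both Ezh1-present oil libraries, and its change after tamoxifen in Ezh1-null cells was -0.20 ± 0.14 (adjusted p = 0.519). Chaf1b, a subunit of the histone chaperone that follows the fork, read -0.29 and -0.19 in Ezh1-null tamoxifen, -0.19 and -0.06 in Ezh1-null oil, 0.10 and 0.24 in Ezh1-present tamoxifen, and 0.06 and 0.12 in Ezh1-present oil libraries. All 4 Ezh1-null libraries lay below all 4 Ezh1-present ones, and its change against Ezh1-present tamoxifen was -0.41 ± 0.10 (adjusted p = 0.0601). Fen1, the flap nuclease, and Chaf1a had changes of -0.11 ± 0.09 and -0.27 ± 0.09 after tamoxifen in Ezh1-null cells.

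Members resembled each other to different degrees. As a description over the 8 libraries, the Pearson correlation of a member with the median of the other 47 had a median of 0.85, lay above 0.8 for 32 members and below 0.5 for 7. The low ones were Tk1 at -0.30, Orc3 at 0.03, Gins4 at 0.13, Prim2 at 0.19, Rfc2 at 0.33, Rpa3 at 0.34 and Rrm2 at 0.36. Outside the members, the rows most like the member median were Prx (r = 0.982), Ywhaq (0.975), Paxip1 (0.972), Rad54l (0.970) and Brip1 (0.970), out of 16026 candidate rows. All points share the same 8 libraries and 4 groups. Of the members, 15 overlap another row of the table, and 11 of these a row that was tested.

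Further genes of replication, outside the 48, had changes of similar size. Of 41 further replication genes, 39 were lower in Ezh1-null cells after tamoxifen (median change -0.24, 0 called higher and 1 lower), and 22 of 41 in Ezh1-present cells (median change -0.01, 0 called by limma, 5 with an unadjusted p under 0.05). The 1 called, against 0.299% of rows called lower, was Timeless, a fork protection factor, at -0.51 ± 0.09 (adjusted p = 0.0482). Between Ezh1-null and Ezh1-present cells in tamoxifen 8 were called lower and 0 higher, against 5.44% and 6.77% of rows. The 4 with the smallest p were Atad5, a Pcna unloader, at -0.91 ± 0.11 (adjusted p = 0.0155), Nasp, a histone chaperone, at -0.71 ± 0.09 (adjusted p = 0.0172), Asf1a, a histone chaperone, at -0.73 ± 0.10 (adjusted p = 0.0193), and Dut, a dUTP hydrolase, at -0.58 ± 0.09 (adjusted p = 0.0228). Of these, 3 were also called lower between the genotypes in oil: Atad5 (adjusted p = 0.0055 in limma), Asf1a at -0.67 ± 0.10 (adjusted p = 0.0108) and Nasp at -0.43 ± 0.09 (adjusted p = 0.0268). Dut had 0.01 ± 0.09 (adjusted p = 0.937) there. Of the whole list, 7 of 41 were called lower and 1 higher in oil, against 12.4% and 12.5% of rows. The interaction was 0.10 ± 0.16 (adjusted p = 0.817) for Atad5, -0.06 ± 0.14 (adjusted p = 0.886) for Asf1a, -0.27 ± 0.13 (adjusted p = 0.396) for Nasp and -0.59 ± 0.12 (adjusted p = 0.149) for Dut. Genes of the checkpoint (9 tested) had a median change of -0.19 in Ezh1-null cells after tamoxifen, with 0 called by limma and 3 with an unadjusted p under 0.05.

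Genes of other cell cycle steps were compared in the same way, and the differences between these lists were not tested. The 16 genes of G2 and mitosis had a median change of -0.06 after tamoxifen in Ezh1-null cells and 0.24 in Ezh1-present cells, with 0 called by limma in either and 0 and 5 unadjusted p under 0.05. Their median per library was -0.01 and -0.07 in Ezh1-null tamoxifen, -0.08 and 0.04 in Ezh1-null oil, 0.12 and 0.16 in Ezh1-present tamoxifen, and -0.22 and 0.02 in Ezh1-present oil libraries. In the interaction 15 of these 16 genes were below 0, with a median of -0.31, 0 called by limma and 2 with an unadjusted p under 0.05. The median of the 48 replication genes there was -0.30. Between Ezh1-null and Ezh1-present cells in tamoxifen 13 of the 16 were lower and 3 were called lower, against 5.44% of rows called lower. The 28 genes of E2F and cell cycle entry had a median change of -0.06 in Ezh1-null cells and 0.18 in Ezh1-present cells. In Ezh1-null cells 3 of them were called, all higher after tamoxifen, against 3.1% of rows called higher. They were Cdkn2a at 4.51 ± 0.20 (adjusted p = 0.00264), Cdkn2b at 3.77 ± 0.59 (adjusted p = 0.0406) and Ccnd1, the D-type cyclin, at 2.02 ± 0.27 (adjusted p = 0.0284). Of the 28 genes, 10 were higher and 18 lower in that comparison. The other CDK inhibitors listed went both ways without a call: Cdkn1a at 0.98, Cdkn1c at 1.01, Cdkn1b at -0.44, Cdkn2c at -0.35 and Cdkn2d at -0.05. Cdkn2a, which encodes the p16Ink4a inhibitor and p19Arf, read 3.10 and 3.29 in Ezh1-null tamoxifen, -1.19 and -1.44 in Ezh1-null oil, 1.40 and 0.97 in Ezh1-present tamoxifen, and -0.97 and -1.26 in Ezh1-present oil libraries. It was highest in Ezh1-null tamoxifen libraries. In Ezh1-present cells it was the only gene of that list to be called, at 2.31 ± 0.20 (adjusted p = 0.0276). Cdkn2b had a change of 1.84 ± 0.59 (adjusted p = 0.179) there. The replication genes had a median change of 0.03 in that comparison. Whether the changes of Cdkn2a and Cdkn2b bear on the replication genes was not tested.

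**Figure D4:**
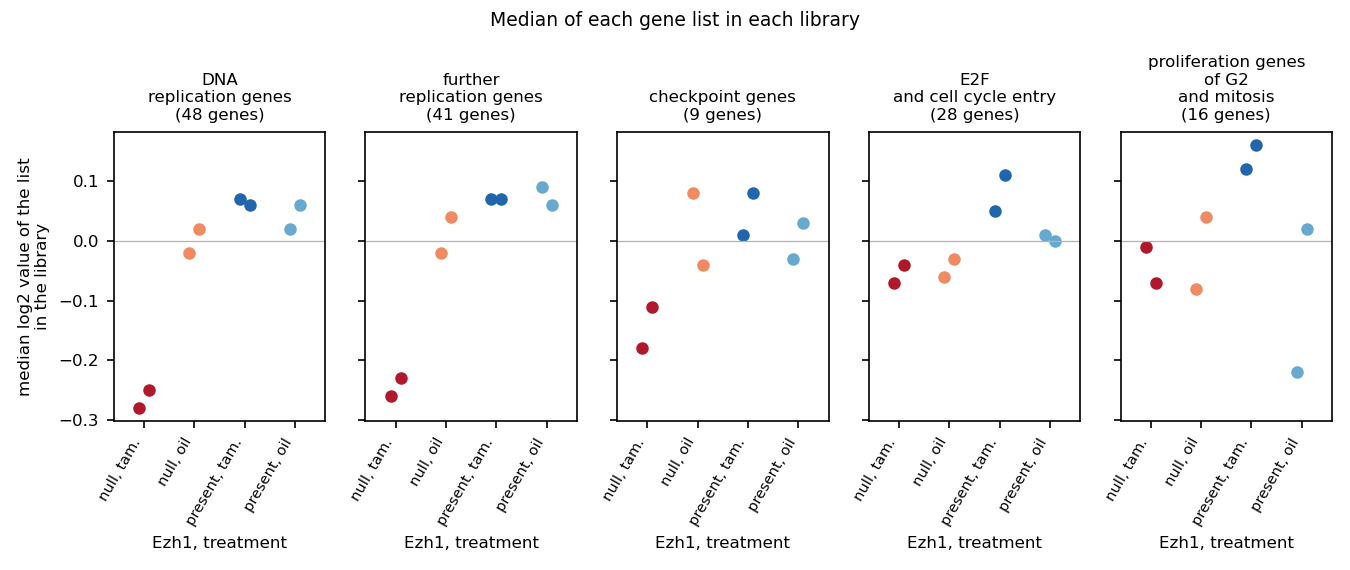
Median log2 value per library, relative to each gene's median, of the 48 replication genes and of the further lists (further replication genes, checkpoint genes, genes of G2 and mitosis, E2F and cell cycle entry genes), by group. The replication genes are at -0.28 and -0.25 in Ezh1-null tamoxifen libraries and the further replication genes at -0.26 and -0.23, while the genes of G2 and mitosis are at -0.01 and -0.07.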

How the data were processed

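RNA sequencing values of 8 libraries in 4 groups of 2 were used, each placed by the genotype and treatment in its labels. The deposited values are log2 values, called normalized per the file headers, and proved to be centred on each row's median, with a normalized read count of 1 as the floor before logs were taken (largest row median 9.55e-07). The deposited log2 fold changes equal differences of group means to within 5.4e-07. The build is mm10 per the submitters' processing notes. Aligner, counter and scaling: not given in the sources used here. Total counts per library cannot be recovered: 67.5% to 74.2% of low values lay within 0.01 of whole reads.

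The 18051 rows that exceeded the floor in 2 or more libraries were fitted in limma 3.58.1 (R 4.3.3) with 1 coefficient per group over all 8 libraries, no replicate term and no trend in the empirical Bayes step, since centring removes the level (residual degrees of freedom 4, prior 1.24). Left out were 12530 rows at the floor throughout and 993 with a single library above it. Adjusted p is Benjamini-Hochberg over all rows. The procedure was tested on simulated data. The plan had foreseen either counts or values with a level, so the fit without a trend took their place. The median SD between libraries of a group was 0.115 in Ezh1-null tamoxifen, 0.116 in Ezh1-null oil, 0.142 in Ezh1-present tamoxifen and 0.125 in Ezh1-present oil. An exact permutation test of 2 libraries against 2 (two-sided) cannot go below 0.333, so none was used.

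The members, gene lists and tests were chosen with earlier results of these data known. Values per library are given for members called in any comparison, those with the 3 largest rises or falls in each, and the member of each role with the widest span. Of other lists, up to 4 called genes per comparison were named, and the CDK inhibitors also where they were not called. Alternatives were quantile normalization, library medians set to 0, other filters, robust moderation, only the groups compared, a replicate block, and each library left out. Tables and plots used pandas 2.3.3 and matplotlib 3.10.9 under Python 3.11.15. The smaller deposited table was not used.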

Additional observations from a re-analysis of the deposited data

How the results depend on the processing

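Directions of the list were steadier than calls. Counts of called members under alternatives are given without the share of all rows called in the same fit. Members with a change below 0 numbered 46 to 48 after tamoxifen in Ezh1-null cells, 47 between the genotypes in tamoxifen and 47 in the interaction, in every alternative run. After tamoxifen in Ezh1-null cells the called members (1) became 0 without the filter, with robust moderation or with only the groups compared. Between the genotypes in tamoxifen (11) they became 20 under quantile normalization, 18 with only rows above the floor in all libraries, and 0 with only the groups compared. Between the genotypes in oil (4) they became 1 under quantile normalization, 2 with robust moderation and 0 with only the groups compared, and between Ezh1-null tamoxifen and Ezh1-present oil (20) 3 with only the groups compared. Fits of only the groups compared, with a replicate block or with a library left out have fewer residual degrees of freedom. The cause of the other shifts was not tested. Under quantile normalization, which moved the median of all rows after tamoxifen in Ezh1-null cells to -0.09, the member medians were -0.40 for that comparison, -0.48 between the genotypes in tamoxifen, -0.47 between Ezh1-null tamoxifen and Ezh1-present oil, and -0.44 in the interaction.

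Leaving out 1 library gave 0 to 0 called members after tamoxifen in either genotype and in the interaction, 0 to 2 between the genotypes in tamoxifen and in oil, and 1 to 14 between Ezh1-null tamoxifen and Ezh1-present oil. The medians then ran from -0.29 to -0.23 (tamoxifen, Ezh1-null), 0.01 to 0.06 (tamoxifen, Ezh1-present), -0.35 to -0.32 (genotypes in tamoxifen), -0.08 to -0.01 (genotypes in oil), -0.35 to -0.30 (Ezh1-null tamoxifen against Ezh1-present oil) and -0.33 to -0.27 (interaction). Tk1 between the genotypes in tamoxifen ran from -0.06, without Ezh1-present tamoxifen replicate 1, to 0.15. Same-numbered libraries of different groups had deviations correlated between -0.09 and 0.12, so the numbers were not taken to pair the libraries. With a replicate block, 0 members were called after tamoxifen in Ezh1-null cells, 1 between the genotypes in tamoxifen, 1 between them in oil and 10 between Ezh1-null tamoxifen and Ezh1-present oil. The 36 calls of single members gave 540 values under alternatives, of which 253 stayed past the threshold and 287 did not. Total counts are unknown, so no counting error could be given.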
